A study of Mus musculus with 7 samples.

Results

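Chd7 peaks at active promoters are the sites in cerebellar granule neuron progenitors (GNPs) where the chromatin remodeller Chd7 was mapped beside a transcript start that also carried H3K27ac, the acetylation of histone H3 that marks active promoters and enhancers. A ChIP-seq peak is a stretch where the DNA fragments pulled down by an antibody pile up over the local background. A peak was taken when its summit lay within 1 kb of a GENCODE M21 transcript start on chromosomes 1 to 19 or X, when at least 1 bp of it overlapped an H3K27ac peak, and when it overlapped no Chd7 peak of *Chd7*-deficient GNPs. This rule took 838 of the 1946 Chd7 peaks of WT GNPs. The remaining peaks on these chromosomes were 361 acetylated peaks farther from a start but within a gene, 311 acetylated peaks between genes, 267 distal peaks without H3K27ac, 92 promoter peaks without H3K27ac and 31 peaks that overlapped a peak of *Chd7*-deficient GNPs. The members were thus chosen by their measured Chd7 and H3K27ac peaks, so these values are given as a description.

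GNPs were isolated at postnatal day 7 from C57BL/6 mice (C57BL/6N in the study's methods), from WT animals (*Chd7* f/f) and from *Chd7*-deficient animals (*Atoh1-Cre::Chd7* f/f). Cerebellar granule neurons (CGNs) of both genotypes, in which the topoisomerase Top2b was mapped, had been cultured from GNPs for 48 h without SHH. *Atoh1-Cre* acts in the granule lineage, does not target Purkinje cells, and left some Chd7 protein in the posterior lobe of these mice. Each antibody and genotype was represented by 1 library, so the spread between animals is not known for either genotype, and no test was made. Intervals are 95% Wilson intervals and cover counting error only.

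Chd7 is an ATP-dependent remodeller of the CHD family that slides nucleosomes, and its chromodomains bind methylated histone H3. Active promoters of vertebrates are mostly CpG islands, with a nucleosome-depleted stretch at the start flanked by acetylated nucleosomes. Top2b is the type II topoisomerase of postmitotic cells and relieves supercoiling by passing one DNA duplex through another. Granule cells arise from progenitors that divide in the external granule layer under SHH and then leave the cycle to become the most numerous neurons of the cerebellum.

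The label of the cells was checked with markers. All 8 GNP markers (*Atoh1*, *Pax6*, *Zic1*, *Zic2*, *Barhl1*, *Meis1*, *Mycn* and *Gli1*) had an H3K27ac peak at a start, with fold enrichments from 3.55 to 33.8. Of markers of other cells, H3K27ac was found at 2 of 5 for Purkinje cells (*Lhx1*, *Lhx5*), 2 of 4 for inhibitory interneurons (*Pax2*, *Gad1*), 2 of 4 for Bergmann glia or astrocytes (*Gfap*, *Slc1a3*), 1 of 3 for the oligodendrocyte lineage (*Pdgfra*), 1 of 3 for microglia (*Csf1r*) and 1 of 2 for endothelium (*Pecam1*), with folds from 2.41 to 10.6. *Calb1*, *Pcp2*, *Ptf1a*, *Aqp4*, *Olig2*, *Sox10*, *Cx3cr1* and *Cldn5* had none. Chd7 peaks at active promoters were present at *Zic2* and *Mycn*, 2 of the 8 GNP markers, and at none of the markers of other cells. Of all coding genes with an acetylated promoter, 8.14% held such a peak, so these marker counts are too small to tell the cell types apart.

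The sequences under the Chd7 summits show what these sites look like. The 300 bases centred on the summit are given for 5 members, on the plus strand of GRCm38/mm10, from the RefSeq assembly. *Prrc2a* (chr17:35164901-35165200) and *Selenot* (chr3:58576774-58577073) had the highest Chd7 fold enrichments, *Nfib* (chr4:82505481-82505780) the highest among granule lineage transcription factors, *Bcl7a* (chr5:123344390-123344689) the highest among chromatin remodellers, and *Gm47175* (chr9:56506353-56506652) the highest among members poor in CpG. Capitals mark matches to any of 20 motifs searched on both strands, and neighbouring matches may overlap.
Prrc2a: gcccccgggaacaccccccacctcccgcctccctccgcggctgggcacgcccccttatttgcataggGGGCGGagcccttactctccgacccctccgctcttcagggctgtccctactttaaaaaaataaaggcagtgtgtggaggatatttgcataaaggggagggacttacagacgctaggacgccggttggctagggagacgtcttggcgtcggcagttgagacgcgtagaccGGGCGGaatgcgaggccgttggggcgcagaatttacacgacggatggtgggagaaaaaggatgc
Selenot: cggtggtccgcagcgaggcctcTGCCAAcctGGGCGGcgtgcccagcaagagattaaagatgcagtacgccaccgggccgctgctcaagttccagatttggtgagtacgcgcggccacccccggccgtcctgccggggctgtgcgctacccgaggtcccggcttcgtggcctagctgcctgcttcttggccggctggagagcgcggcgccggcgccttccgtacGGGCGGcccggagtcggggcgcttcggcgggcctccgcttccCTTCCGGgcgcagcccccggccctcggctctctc
Nfib: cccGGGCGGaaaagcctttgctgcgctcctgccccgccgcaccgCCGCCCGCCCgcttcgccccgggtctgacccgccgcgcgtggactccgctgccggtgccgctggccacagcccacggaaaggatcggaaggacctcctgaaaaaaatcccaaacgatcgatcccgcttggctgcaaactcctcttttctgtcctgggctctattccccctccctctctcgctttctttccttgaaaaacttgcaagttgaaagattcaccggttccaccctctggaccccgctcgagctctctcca
Bcl7a: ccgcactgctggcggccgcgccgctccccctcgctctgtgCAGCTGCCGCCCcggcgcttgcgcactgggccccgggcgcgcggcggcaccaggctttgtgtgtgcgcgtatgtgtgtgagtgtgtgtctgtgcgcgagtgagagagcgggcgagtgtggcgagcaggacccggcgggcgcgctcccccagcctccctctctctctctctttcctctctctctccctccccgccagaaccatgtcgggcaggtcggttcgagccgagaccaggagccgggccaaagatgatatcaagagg
Gm47175: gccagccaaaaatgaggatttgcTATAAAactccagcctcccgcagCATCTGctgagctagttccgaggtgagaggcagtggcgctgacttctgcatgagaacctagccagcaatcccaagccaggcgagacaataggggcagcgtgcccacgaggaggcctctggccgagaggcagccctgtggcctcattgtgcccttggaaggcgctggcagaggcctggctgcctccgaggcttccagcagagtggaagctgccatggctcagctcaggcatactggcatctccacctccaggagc

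The first 4 of these windows are rich in G, C and CpG, as CpG island promoters are. The *Prrc2a* window held 60.7% G+C, 23 CpG dinucleotides and 2 GC boxes (GGGCGG, the letters bound by Sp and Klf factors), and its summit lay 68 bp upstream of the start of the non-coding *Gm17705*, outside any transcript. *Prrc2a* encodes an RNA-binding protein. The *Selenot* window held 72.7% G+C, 37 CpG, 2 GC boxes and 1 ETS core (CCGGAAG), with the summit in an intron 226 bp downstream of the start. *Selenot* encodes a selenoprotein of the endoplasmic reticulum. The *Nfib* window had 27 CpG and 3 GC boxes, 2 of which share letters, and the summit fell in an untranslated exon, 76 bp downstream of a start. *Bcl7a*, a subunit of the BAF remodelling complex, had 32 CpG and its summit in an untranslated exon 40 bp downstream of the start. The *Gm47175* window, in an exon of a non-coding transcript, had only 9 CpG, an observed over expected CpG of 0.323, a TATA box (TATAAA) and an E-box (CAGATG, here as its complement).

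The members were moderate peaks on strongly acetylated promoters. Their Chd7 fold enrichment over the local background had a median of 3.98 (quartiles 3.53 and 4.49, range 2.48 to 10.6), with a median of 20 fragments at the summit, a median −log10 q-value of 4.13 and a median width of 424 bp. H3K27ac at the same sites had a median fold enrichment of 14.2 (quartiles 9.32 and 21.1) and a median peak width of 1653 bp. Acetylated Chd7 peaks within genes had a median Chd7 fold of 4.10 and those between genes of 4.21, whereas their median H3K27ac folds were 8.75 and 8.24. Promoter peaks thus had similar Chd7 values and higher H3K27ac values than distal ones. Across the 838 members the height of Chd7 said little about the height of H3K27ac (Spearman rho 0.09 between the folds). Both values come from the same cells, share base composition and were used in the choice of the members.

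**Figure D1:**
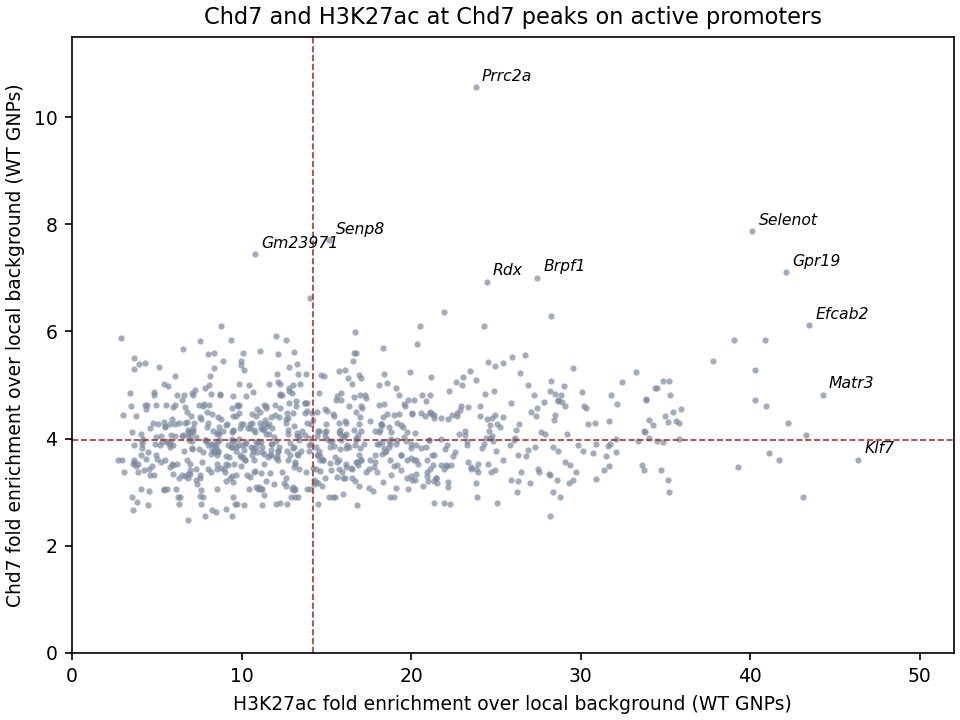
Each point is one of the 838 Chd7 peaks at active promoters, with H3K27ac fold enrichment on the x axis and Chd7 fold enrichment on the y axis, both over the local background in WT GNPs (1 library each). Dashed lines are the medians, 14.2 and 3.98. *Prrc2a* stands alone at the top with 10.6, and *Klf7*, *Matr3* and *Efcab2* lie at the far right with Chd7 folds of 3.61, 4.82 and 6.12.

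Among the 10 members with the highest Chd7 fold, *Prrc2a* led with 10.6 (chr17:35164592, H3K27ac fold 23.8), followed by *Selenot* with 7.87 (H3K27ac 40.1). The shared start of *Senp8*, which encodes a NEDD8 protease, and *Myo9a*, an unconventional myosin, had 7.70. *Gpr19*, an orphan receptor, had 7.11, *Brpf1*, a scaffold of histone acetyltransferase complexes, had 7.0, and *Rdx*, which encodes radixin, had 6.93. The divergent start of *Cbx3*, a heterochromatin protein, and *Hnrnpa2b1*, an RNA-binding protein, had 6.37. The other three lay at small nuclear RNA (snRNA) genes, namely *Gm23971* with 7.45, *Rnu11*, the U11 RNA of the minor spliceosome, with 6.62 beside *Gm28872*, and *Gm24407* with *Gm24265*, with 6.29. The highest H3K27ac folds were at *Klf7*, a zinc finger transcription factor, with 46.3, *Matr3*, a nuclear matrix protein, with 44.3 and *Efcab2*, an EF-hand protein, with 43.5.

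In 11 members the nearest start belonged to an snRNA gene. Their Chd7 folds ran from 3.0 to 7.45 and their H3K27ac folds from 6.56 to 33.3. They included *Rnu2-10*, a U2 gene (Chd7 5.32, H3K27ac 29.5), *Rnu1a1*, a U1 gene (5.25 and 33.3), and *Rnu5g*, a U5 gene (3.21 and 16.7). The snRNA genes are repeated in the genome, and the authors kept only reads with a single alignment, so the coverage at such copies is uncertain. Top2b overlapped 1 of the 11 in WT CGNs and 2 in *Chd7*-deficient CGNs, against 18.1% and 40.1% of all members.

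Summits clustered at the start itself. The rule allowed 1 kb on each side, yet 563 of 838 summits (67.2%) lay within 200 bp of the nearest start and 231 (27.6%) within 50 bp. The median signed distance was 3 bp, with quartiles of −113 and 133 bp, and 407 summits lay upstream, 428 downstream and 3 at the start. By annotation, 296 summits (35.3%) fell in an untranslated exon of a coding gene, 69 (8.23%) in a coding exon, 70 (8.35%) in an exon of a non-coding gene, 198 (23.6%) in an intron and 205 (24.5%) outside any transcript. The H3K27ac summit was usually shifted off the Chd7 summit. Its median absolute offset was 273 bp, it lay downstream in 508 members (60.6%), and it was within 200 bp in 300 (35.8%). Whole Chd7 peaks lay inside the H3K27ac peak in 627 members (74.8%). With each member assigned to the overlapping H3K27ac peak of highest fold, the 838 members fell in 808 H3K27ac peaks, 29 of which held more than 1 member, with 3 at *Ing1*, a gene of a PHD finger protein of histone deacetylase complexes.

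**Figure D2:**
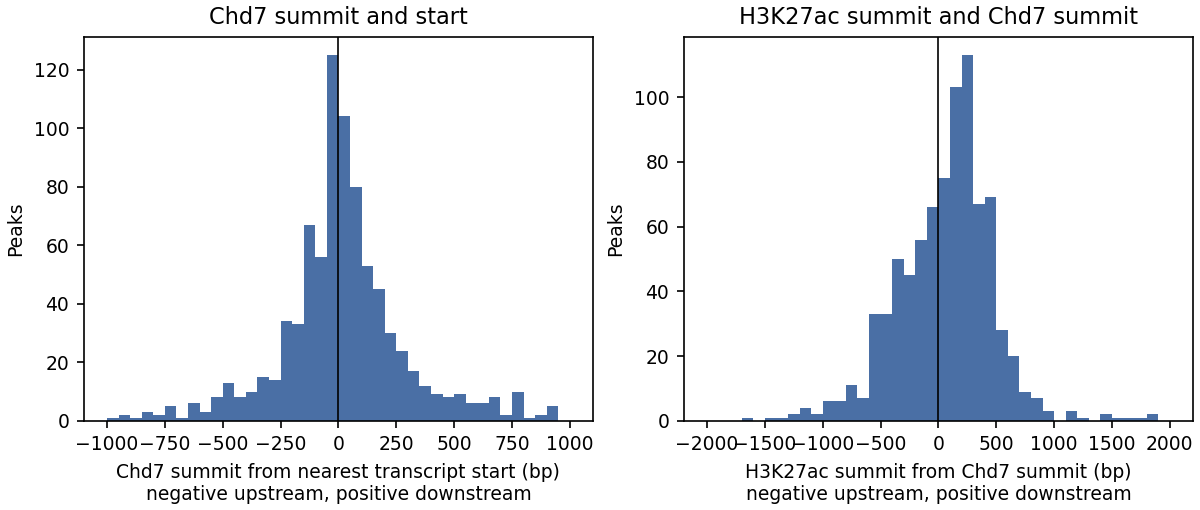
Left, histogram of the distance from the nearest transcript start to the Chd7 summit for the 838 members, in bins of 50 bp. Right, histogram of the distance from the Chd7 summit to the H3K27ac summit, in bins of 100 bp, leaving out 9 members beyond 2 kb. Positive values are downstream in the direction of the nearest transcript. Chd7 summits pile up at 0, with a median of 3 bp, while 60.6% of H3K27ac summits lie downstream of the Chd7 summit.

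The limit of 1 kb cut through few peaks. Just inside it were *Myo10* at 969 bp (Chd7 fold 4.09), *Gm49439* at 928 bp (4.49) and *Trp53*, the tumour suppressor p53, at 923 bp (3.05). Just outside were *Gm15762* at 1002 bp (4.34), *Atxn1* at 1005 bp (5.03) and *Gm28010* at 1032 bp (3.31). One further peak met every criterion but overlapped a peak of *Chd7*-deficient GNPs, at *Duxf3* (fold 9.21), a member of the double homeobox family.

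Most members served coding genes. A coding start lay within 1 kb of 761 members (90.8%), and 101 members (12.1%) had coding starts on both strands. The 77 members without a coding gene had a median Chd7 fold of 4.04 and a median H3K27ac fold of 14.0, against 3.98 and 14.4 for the 761. Of 10210 coding genes with an acetylated promoter, 831 (8.14%) held a member. These genes had a median length of 35.5 kb (quartiles 13.6 and 87.9) against 24.97 kb (10.7 and 58.1) for the 9361 acetylated genes without Chd7 at the start, and 21.4% against 13.8% were over 100 kb long. Opposite coding starts within 1 kb were about as frequent in both, at 23.7% (20.9 to 26.7) and 21% (20.2 to 21.8). A distal acetylated Chd7 peak inside the gene was present in 37 of the 831 (4.45%, 3.25 to 6.08) and in 180 of the 9361 (1.92%, 1.66 to 2.22).

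The width of acetylation moved with the presence of Chd7. In quintiles of the H3K27ac peak width at the start, members were found at 40 of 2042 coding genes in the narrowest (307 to 617 bp), then at 4.41%, 7.35% and 7.64%, and at 19.3% (17.7 to 21.1) in the widest (1726 bp and more). The median H3K27ac width of each gene list is therefore given beside its count, to be read against 1077 bp for all acetylated coding genes, and the part of width in these counts was not tested.

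At the CpG level, active promoters differed from distal Chd7 sites. In 300 bp around the summit the members had a median of 67.7% G+C and a median observed over expected CpG of 0.861 (quartiles 0.694 and 0.980), against 0.243 at acetylated peaks within genes and 0.211 between genes. A ratio of at least 0.6, as in CpG islands, was found in 698 members (83.3%, 80.6 to 85.7), in 6.37% of the peaks within genes and in 5.79% of those between genes. Compared with other active promoters the difference was small. In windows from 250 bp before to 50 bp after the start, the median ratio was 0.884 for genes with a member and 0.828 for acetylated genes without Chd7, and 0.387 for all 32619 RefSeq promoters. For each acetylated gene the start nearest the summit of its strongest H3K27ac peak was used, which need not be the start beside Chd7. Ratios under 0.4 were found in 71 members (8.47%). These had a median H3K27ac fold of 9.99 against 14.6 in the other 767, and lay at a median of 239 bp from the start against 114 bp. No coding gene lay within 1 kb of 31 of the 71, against 46 of the 767. Top2b overlapped 9.86% against 18.9% in WT CGNs, and 23.9% against 41.6% in *Chd7*-deficient CGNs. Coding genes among the 71 included *Dync1li2*, a dynein light intermediate chain, with a Chd7 fold of 5.53, and *Pou2f1*, the octamer factor Oct-1, with 5.39. *Diaph3*, a formin, had 5.33, *Csrnp3* 5.17 and *Tppp3* 4.83, and all of these were chosen after their values were seen.

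**Figure D3:**
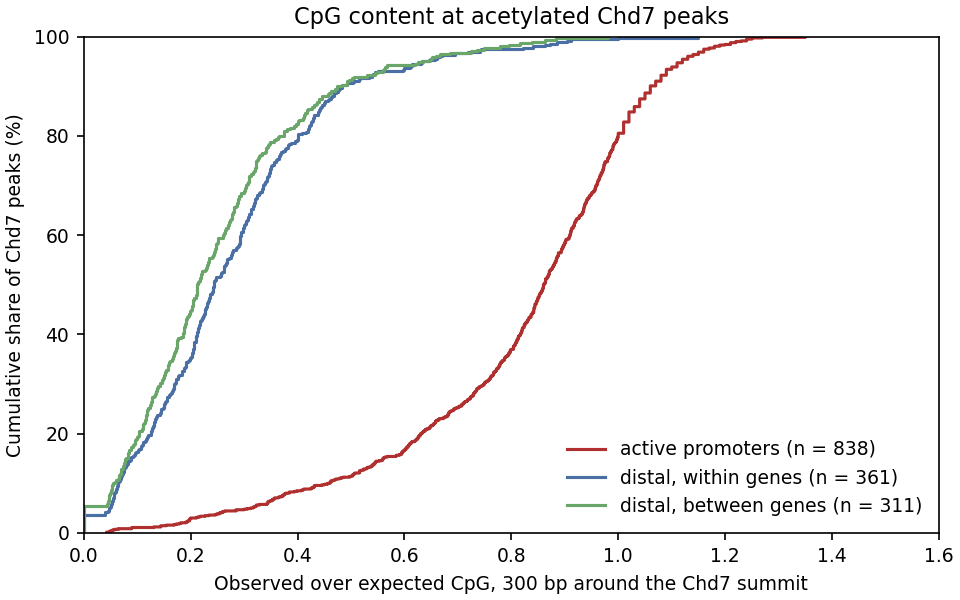
Cumulative share of Chd7 peaks (y axis, percent) by observed over expected CpG in 300 bp around the Chd7 summit (x axis), for the 838 peaks at active promoters and for acetylated peaks within genes (361) and between genes (311). The medians are 0.861, 0.243 and 0.211.

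The motifs followed the same division. A GC box was found in 553 members (66.0%, 62.7 to 69.1) and in 9.97% of both distal classes, with 35.9% among all RefSeq promoters of the same length. The E-box CAGATG, which Atoh1 and Neurod1 can bind, was found in 115 members (13.7%, 11.6 to 16.2) but in 51.8% (46.7 to 56.9) of acetylated peaks within genes and 54.0% (48.5 to 59.5) between genes, with 17.1% among RefSeq promoters. For the E-box CAGCTG the shares were 18.7% in members, 36.8% within genes, 33.8% between genes and 16.4% among RefSeq promoters. The NFI letters TTGGCA was found in 10.7% of members, 41.8% and 39.2% of the distal classes and 14.1% of RefSeq promoters, and the TATA box in 5.13%, 11.6%, 11.3% and 13.7%. The CCAAT box was found in 29.1% of members (26.1 to 32.3), 41.3% and 40.2% of the distal classes and 37.6% of RefSeq promoters, and the E2F letters TTCCCGC in 9.90%, 3.32%, 1.93% and 4.63%. For the MEIS letters TGACAG the shares were 15.6%, 29.4%, 31.5% and 18.9%, for the ZIC letters CAGCAGG 10.6%, 20.2%, 17.0% and 10.6%, for the E-box CACGTG 8.11%, 2.49%, 4.82% and 7.20%, and for AP-1 (TGACTCA) 1.79%, 5.54%, 5.14% and 5.22%. The other motifs searched, namely CRE (TGACGTCA and TGACGTAA), YY1 (AAGATGGC), RFX (GTTGCCNNG), SOX (ACAATGG), GLI (GACCACCCA) and CTCGCGAG, were each found in at most 5.49% of members. Both strands were searched, some of these letters can overlap (CCAAT with the NFI letters, and GC boxes with each other), and no motif was counted more than once per window. Promoter windows have a different base composition from distal ones, and its part in these shares was not tested.

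Compared with other active promoters, the ETS core was less frequent, a motif singled out after its values were seen. At starts, chosen by H3K27ac as for CpG above, CCGGAAG was found in 102 of the 831 genes with a member (12.3%, 10.2 to 14.7). It was found in 1917 of the 9361 acetylated genes without Chd7 (20.5%, 19.7 to 21.3), with 8.92% among RefSeq promoters. The difference was −8.20 percentage points (−10.4 to −5.67). Within quintiles of H3K27ac width the shares were 20% against 18.6% in the narrowest, 14.4% against 23.5%, 14.7% against 24.1%, 14.1% against 22.5%, and 9.37% against 12.8% in the widest, so the direction held in all but the narrowest quintile, which had 40 genes with a member. The NRF1 letters GCATGCGC were found in 3.25% (2.24 to 4.69) and 5.96% (5.50 to 6.46), and the GC box in 73.2% and 67.2%. A match of letters is a description and not a binding site.

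Top2b peaks of CGNs were not used in the rule that chose the members. Of the 838 members, 152 (18.1%, 15.7 to 20.9) overlapped a Top2b peak of WT CGNs and 336 (40.1%, 36.8 to 43.5) one of *Chd7*-deficient CGNs. Both genotypes had Top2b at 91 members (10.9%), WT alone at 61 (7.28%), *Chd7*-deficient alone at 245 (29.2%) and neither at 441 (52.6%). Acetylated peaks within genes had 16.3% (12.9 to 20.5) in WT and 30.7% (26.2 to 35.7) in *Chd7*-deficient CGNs, and those between genes 17.4% (13.6 to 22.0) and 38.6% (33.3 to 44.1). The WT shares of the 3 classes thus lay within each other's intervals. Measured from the Chd7 summit of WT GNPs, the centre of the closest Top2b peak within 2 kb lay at a median of 367 bp in WT CGNs (258 members) and 248 bp in *Chd7*-deficient CGNs (460 members).

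To compare promoters with and without Chd7 by the same unit, H3K27ac peaks with a summit within 1 kb of a start were taken. They counted as holding a member where they overlapped one. Of all 12218 such peaks, 13.7% overlapped Top2b of WT CGNs and 30.2% Top2b of *Chd7*-deficient CGNs. With a member they did so in 218 of 833 (26.2%, 23.3 to 29.3) in WT and 406 (48.7%, 45.4 to 52.1) in *Chd7*-deficient CGNs, and without any Chd7 peak in 1452 of 11368 (12.8%, 12.2 to 13.4) and 3277 (28.8%, 28.0 to 29.7). The differences were 13.4 percentage points (10.5 to 16.5) in WT and 19.9 (16.4 to 23.4) in *Chd7*-deficient CGNs. H3K27ac peaks with a member were wider, with a median of 1528 bp against 848 bp, and higher, with a median fold of 13.35 against 6.53. Their median fold was also the higher within each quintile of width, at 17.5 against 13.3 in the widest. The part of H3K27ac height in the Top2b shares was not tested. Within quintiles of width the shares with a member were the higher in each, but by less. The widest quintile ran from 1565 to 25227 bp and held 408 of the 833 peaks with a member. The part of width within a quintile was not tested. In the widest quintile they were 35.3% (30.8 to 40.0) against 24.5% (22.7 to 26.4) in WT and 59.3% (54.5 to 64.0) against 46.6% (44.4 to 48.8) in *Chd7*-deficient CGNs. In the narrowest they were 8.57% (2.96 to 22.4) against 5.73% (4.87 to 6.73) and 20% (10 to 35.9) against 14.2% (12.9 to 15.7), with intervals that overlap.

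**Figure D4:**
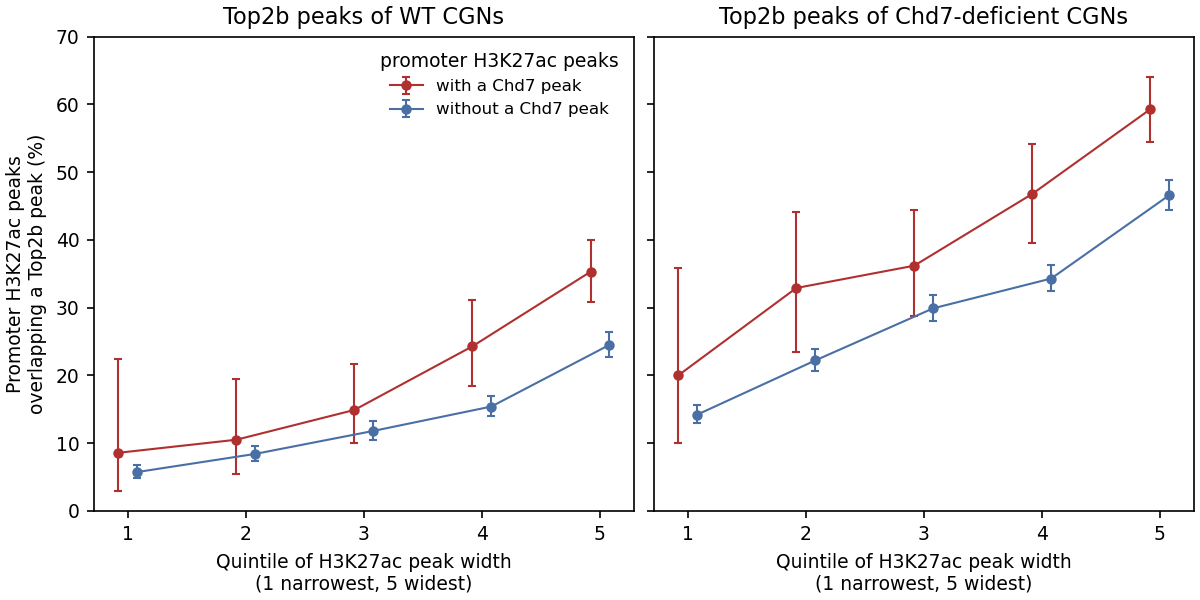
Share of promoter H3K27ac peaks that overlap a Top2b peak (y axis, percent) by quintile of H3K27ac peak width (x axis), for peaks with a Chd7 peak at an active promoter (red, 35 to 408 per quintile) and without any Chd7 peak (blue, 2022 to 2408). Left, Top2b of WT CGNs; right, of *Chd7*-deficient CGNs. Bars are 95% Wilson intervals. The red points lie above the blue ones in every quintile, with separate intervals in the 2 widest quintiles of both genotypes.

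The higher Top2b share without Chd7 was not limited to members. The *Chd7*-deficient library held 21497 Top2b peaks on these chromosomes against 17019 in WT, 1.26 times as many, and 5900 against 3370 within 1 kb of a start, 1.75 times as many. The count of overlapped members was 2.21 times that in WT. With whole promoter H3K27ac peaks as the unit, it was 1.86 times for those with a member and 2.26 times for those without Chd7. Of the 152 members with Top2b in WT, 59.9% (51.9 to 67.3) also had it in *Chd7*-deficient CGNs. By whole promoter H3K27ac peaks, 157 of 218 with a member did so. Without Chd7 it was a lower share, 888 of 1452 (61.2%, 58.6 to 63.6). Members are narrower than H3K27ac peaks, so these units are not alike, and the difference was not tested. The genotype and the library cannot be told apart here, and the number of reads is not in the files. The study compared Top2b signal at peaks across the genome. It reports more genes with decreased than with increased Top2b peaks in *Chd7*-deficient CGNs. Presence or absence of a peak, as counted here, is another measure. Chd7 height did not order the shares, with 20.2% in WT in both the lowest and the highest quintile of Chd7 fold among the members.

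The members with the highest Chd7 fold and Top2b in WT CGNs only were *Selenot* (7.87), *Senp8* with *Myo9a* (7.70), *B3galt1*, a galactosyltransferase (5.91), *Gpm6a*, a neuronal membrane glycoprotein (5.56), and *Tmem184c* (5.31). Those with Top2b in *Chd7*-deficient CGNs only were *Birc2*, an inhibitor of apoptosis (6.10), *Ptma*, prothymosin alpha (5.84), *Mdc1*, a mediator of the DNA damage checkpoint (5.84), *Foxp2*, a forkhead transcription factor (5.83), and *Trib1*, a pseudokinase (5.77). The Top2b tables give positions only, so peak heights could not be compared. *Prrc2a*, *Gm23971* and *Gpr19* had Top2b in both genotypes, and *Brpf1*, *Rdx*, *Rnu11* and *Cbx3* in neither.

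Gene lists were read against the 8.14% of all coding genes with an acetylated promoter. Chromatin remodellers stood high, with a member at 13 of 42 acetylated genes (31.0%, 19.1 to 46.0) and a median H3K27ac width of 1450 bp. *Bcl7a* had a Chd7 fold of 5.84 and an H3K27ac fold of 40.9. *Smarca5*, the ISWI ATPase, had 5.08 and 35.2, with a second member at 3.01. *Smarca2* and *Smarca4*, the alternative ATPases of the BAF complex, had Chd7 folds of 4.84 and 4.41. *Baz2b*, a partner of ISWI ATPases, had 4.64, and *Srcap* and *Ep400*, which exchange the histone variant H2A.Z, had 4.61 and 4.48. Several of the encoded proteins belong to the same complexes, with *Arid1a*, *Ss18l1* and *Smarcd2* as further BAF subunits at 4.02, 3.74 and 2.77. Enzymes that modify histones or DNA had a member at 8 of 66 (12.1%, 6.27 to 22.1, median width 1684 bp), led by the deacetylase genes *Hdac4* (4.48) and *Hdac5* (4.28), the acetyltransferase gene *Kat6b* (3.89), the demethylase gene *Kdm3a* (3.80), *Hdac9* (3.75) and the methyltransferase gene *Kmt2a* (3.70). None of the 5 acetylated topoisomerase genes (median width 1423 bp) held a member, which allows a share of up to 43.4%.

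Replication-dependent histone genes, transcribed in S phase, held members at 19 of 59 acetylated genes (32.2%, 21.7 to 44.9), with a median H3K27ac width of 2758 bp. These were 13 peaks in the Hist1 cluster of chromosome 13, since 6 of them lay within 1 kb of the starts of 2 coding histone genes. Genes that share a peak are not independent. Their Chd7 folds ran from 3.60 to 5.32, with the highest at the shared start of *Hist1h2ak* and *Hist1h2bn*, then at *Hist1h2ai* with *Hist1h2bl* (5.03), *Hist1h3a* (4.87) and *Hist1h4j* (4.85). Top2b overlapped 2 of the 13 in each genotype, against 18.1% of all members in WT and 40.1% in *Chd7*-deficient CGNs. By the nearest start alone, 12 of the 59 held a member. Histone genes are near-identical copies, so reads were counted only where they aligned once.

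Transcription factors of the granule lineage held members at 10 of 42 acetylated genes (23.8%, 13.5 to 38.5), with a median H3K27ac width of 3468 bp, the widest of the lists. *Nfib*, a nuclear factor I gene that acts in granule cell differentiation, had a Chd7 fold of 5.28 and an H3K27ac fold of 40.3. *Sox11*, a SoxC factor of new neurons, had 5.18 and 14.7, with Top2b in *Chd7*-deficient CGNs only. The zinc finger gene *Myt1* had 4.49, *Mycn*, the Myc gene of dividing GNPs, had 4.36 with H3K27ac at 22.2, the bHLH gene *Tcf4* had 4.28 and 3.99 at 2 members, and *St18*, a relative of *Myt1*, had 3.95. *Zic2* (3.52) lay in an H3K27ac peak of 25227 bp and had Top2b in both genotypes.

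Genes of SHH signalling held members at 4 of 17 (23.5%, 9.56 to 47.3, median width 1972 bp). *Gas1*, a co-receptor of SHH, had 2 members with folds of 5.01 and 4.48, *Gsk3b*, a kinase that phosphorylates Gli proteins, had 4.09, *Ptch1*, the SHH receptor, had 3.70, and *Fbxw11*, which recognises phosphorylated proteins for ubiquitination, had 3.41. In the Notch pathway they were found at 4 of 14 (28.6%, 11.7 to 54.6, median width 1556 bp), namely the coactivator *Maml1* (4.58), the bHLH gene *Hes6* (4.02), the receptor *Notch4* (3.74) and *Numbl* (3.71). Of the Bmp genes *Bmpr1a*, a type I receptor, held a member (1 of 15, fold 4.45, median width of the list 1405 bp), and of the Wnt genes *Fzd3*, a receptor of the Frizzled family (1 of 19, fold 5.25, median width of the list 1380 bp).

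RNA-binding and splicing proteins held members at 8 of 52 (15.4%, 8.01 to 27.5, median width 2025 bp), with *Hnrnpa2b1* (6.37), *Hnrnpk* (4.82), *Hnrnpl* (3.95), *Hnrnpa3* (3.77), the neuronal splicing regulator *Ptbp2* (3.77) and *Elavl3* (3.70) highest. Genes of replication and mitosis had 4 of 37 (10.8%, 4.29 to 24.7, median width 1276 bp), namely *Ccne1*, cyclin E (4.85), *Mcm7*, a subunit of the replicative helicase (4.17), *Rbl1*, a relative of the retinoblastoma protein (3.98), and *E2f1* (3.74). Other housekeeping lists were close to or below the share of all acetylated genes. Cytosolic ribosomal proteins had 4 of 81 (4.94%, 1.94 to 12.0, median width 1177 bp), with *Rps29* highest at 4.14, proteasome subunits 2 of 34 (*Psmd3* at 5.69 and *Psma7* at 3.74, median width 995 bp), and the respiratory chain 1 of 73 (*Cox7c* at 3.09, 1.37%, 0.242 to 7.36, median width 1041 bp).

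In lists of neuronal channels, receptors and guidance molecules, Chd7 was counted both at the start and inside the gene, and the difference between these counts was not tested. Voltage-gated and related ion channels held members at 3 of 25 acetylated genes (12%, 4.17 to 30, median width 1127 bp). These were *Kcnn2*, a calcium-activated potassium channel (4.19), *Kcnb2*, a voltage-gated potassium channel (4.14), and *Kcnj3*, a G protein-gated inward rectifier (4.09). A distal acetylated Chd7 peak lay inside the gene in 9 of 25 (36.0%), against 2.13% of all acetylated coding genes. These genes were long, with a median of 249 kb against 25.6 kb. For synaptic adhesion and glutamate receptors the counts were 4 at the start (15.4%, 6.15 to 33.5) and 6 inside, of 26 (median length 168.6 kb, median width 1292 bp). Those at the start were *Ptprd* (3.95), *Nlgn2* (3.41), *Cadm1* (3.09) and *Ptprs* (2.91). For axon guidance and migration the counts were 4 at the start (12.1%, 4.82 to 27.3) and 7 inside, of 33 (161.8 kb and 2201 bp). *Epha7*, an ephrin receptor, had 5.59, *Neo1*, which encodes neogenin, 5.22, *Ntn1*, which encodes netrin-1, 4.99, and *Unc5c*, a netrin receptor, 3.60. Chromatin remodellers, by comparison, had 13 at the start and 4 inside, of 42 (58.8 kb). At a −log10 q of at least 5, 283 of the 10210 acetylated coding genes held a member. At that cut the counts at the start were 0 of 25 for ion channels and 0 of 26 for synaptic adhesion and glutamate receptors. In lists of this size a count of 0 is close to the share of all acetylated genes. The counts were 3 of 33 for axon guidance and migration and 7 of 42 for chromatin remodellers.

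**Figure D5:**
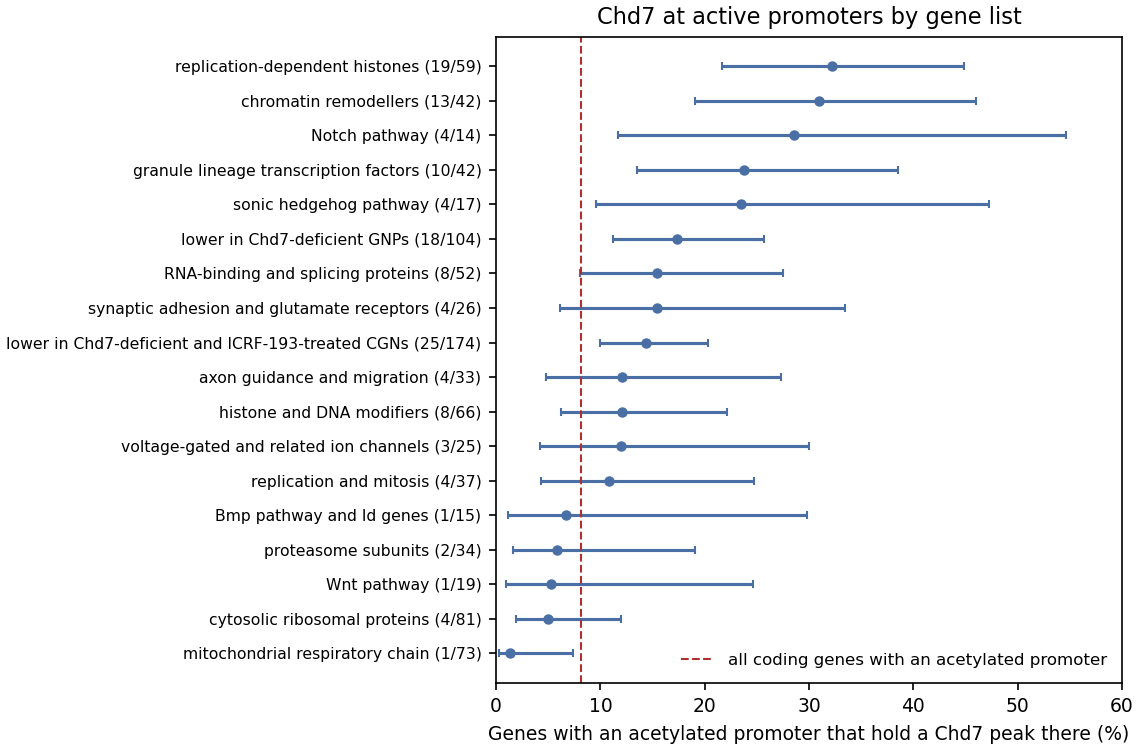
Share of genes with an acetylated promoter that hold a Chd7 peak there (x axis, percent) for each gene list with at least 10 such genes (y axis), with the counts in brackets and 95% Wilson intervals. The dashed line is the 8.14% of all acetylated coding genes. Histone genes and chromatin remodellers lie highest at 32.2% and 31.0%, and the respiratory chain lowest at 1.37%.

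Genes that depended on Chd7 in other data of the study were looked up by name. In the list of genes lower in *Chd7*-deficient GNPs, 18 of 104 genes with an acetylated promoter held a member (17.3%, 11.2 to 25.7), and 14 had a distal acetylated Chd7 peak inside the gene, 5 of them with both. Of all coding genes with an acetylated promoter, 8.14% held a member and 2.13% had such a distal peak. The median H3K27ac width of the list was 1588 bp and its median length 90.4 kb, against 1077 bp and 25.6 kb. The list also counts the non-coding *Gm16169*, and these differences were not tested. Receptors and membrane proteins were *Epha7* (5.59), *Gpm6a* (5.56), *Nkain3* (4.81), *Gpm6b* (4.44), the phosphatase receptor *Ptprk* (4.18) and the potassium channel *Kcnj3* (4.09). Enzymes of glycosylation and processing were *Galntl6* (5.51), *B3galt2* (4.82), *Pcsk5* (4.81) and *Hs3st5* (3.33). *Ppfia2*, a liprin of the presynaptic active zone, had 4.22 and *Amph*, amphiphysin of synaptic vesicle endocytosis, had 3.43. The rest were *Tex14* (5.20, beside the snRNA gene *Gm22068*), *Csrnp3* (5.17), the non-coding *Gm16169* (4.62), *Lurap1l* (4.05), the transcription factor *St18* (3.95) and the phosphatase *Dusp8* (3.82). Of these members only *Gpm6a* had Top2b in WT CGNs, and *Epha7*, *Tex14*, *B3galt2*, *Dusp8* and *Amph* had it in *Chd7*-deficient CGNs. Among all members the shares were 18.1% and 40.1%.

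In the list of genes lower both without Chd7 and under a topoisomerase II inhibitor in CGNs, 25 of 174 held a member (14.4%, 9.93 to 20.3), and 30 had a distal peak inside the gene, 9 with both. The shares of all acetylated coding genes were 8.14% and 2.13%, as above. The list used here has 203 names. The study reports the same number of such genes, out of a larger set, as raised when granule cells differentiate. The list may thus be that part, chosen also by its rise on differentiation. The median length of these genes was 192 kb and their median width 1454 bp, against 25.6 kb and 1077 bp for all acetylated coding genes. The highest were *Gpm6a*, *Galntl6* and *B3galt2*, as above, *Cited2*, a transcriptional co-regulator (4.64), *Cog1*, of the Golgi (4.63), and *Ccng2*, cyclin G2 (4.61). Both lists were chosen by the study on cells of the same genotypes and share genes such as *Gpm6a*, so they are not independent of each other or of the loss of Chd7.

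Among 18 genes that the study names in its account of Chd7 and Top2b, some of them as not changed without Chd7, 3 had a Chd7 peak at an active promoter. *Unc5c* had its summit 110 bp from a start (fold 3.60, H3K27ac 14.8, Top2b in WT only), *Nkain3* 232 bp (4.81, H3K27ac 12.4, no Top2b) and *Sox11* 458 bp. A further member lay inside *Neurod1*, the bHLH gene of granule cell differentiation, at chr2:79454388-79454771, 2165 bp from the nearest *Neurod1* start. It counted as a promoter through the start of the non-coding *Gm26755*, 601 bp away on the opposite strand, and had a Chd7 fold of 3.85, an H3K27ac fold of 20.9 and Top2b in both genotypes. *Cadps2*, *Gap43*, *Reln*, *Bmp5*, *Fstl5*, *Cacna2d1*, *Grik2*, *Kcnd2*, *Cnksr3*, *Zfpm2*, *Sox4*, *Fos*, *Top2b* and *Chd7* itself had an acetylated promoter and no Chd7 peak there. The nearest Chd7 summit was 4474 bp away for *Chd7*, 16616 bp for *Reln*, 18600 bp for *Gap43* and 34569 bp for *Cadps2*, in each case at an acetylated distal peak.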

How the data were processed

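ChIP-seq peak tables of WT and *Chd7*-deficient GNPs and CGNs were analysed, with 1 library per condition. The authors trimmed reads with Trim Galore, mapped them to mm10 with Bowtie 1.0.0 keeping single alignments, and called peaks with MACS2 (Chd7, H3K27ac) or HOMER (Top2b). The deposited pileup is a coverage signal at the summit. The authors also deposited fold enrichment and −log10 p- and q-values, whose decimal signs are missing in the tables. Each was divided by 100000, and the −log10 p-values recomputed for the 838 members differed by at most 1.78e-05. The Top2b tables hold positions only. Read totals are not in the files, so the depth is unknown. The control library used for peak calling is not given in the sources used here.

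Transcript starts were those of GENCODE M21, and an acetylated promoter was a start with an H3K27ac peak within 1 kb. Top2b overlap required at least 1 bp. Sequence was read from GRCm38.p6, in which no Chd7 peak passed a chromosome end. Of the named genes in the study's 2 lists, 147 of 151 and 200 of 203 were found by symbol or synonym, and only the names were used. Named genes were the 10 members with the highest Chd7 fold, the 3 with the highest H3K27ac fold, up to 6 members per list, genes the study names or lists, the peaks nearest the 1 kb limit, and 5 members with Top2b in 1 genotype only for each genotype. The highest Top2b values, also part of the rule, could not be ranked without heights. Outside the rule, *Smarca4*, *Arid1a*, *Ss18l1*, *Smarcd2*, *Zic2*, *Ing1*, *Rnu2-10*, *Rnu1a1*, *Rnu5g* and the members poor in CpG were named after their values were seen. Alternatives were other start distances, a −log10 q of at least 5, other overlaps and windows, and quintiles of H3K27ac width. The members and gene lists were chosen with earlier results of these data known. The overlap and motif code was tested on simulated data. Software versions were samtools 1.23.1, matplotlib 3.10.9, pandas 2.3.3 and scipy 1.17.1 under Python 3.11.15, with numpy 2.4.6.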

Additional observations from a re-analysis of the deposited data

How the results depend on the processing

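Peaks without replicates limit every comparison to counting error, and read totals are not in the tables. No paired analysis was possible because each condition has 1 library. The 838 members became between 757 and 882 under other start distances, coding starts only or a stricter overlap with H3K27ac, but 284 at a −log10 q of at least 5, where 283 coding genes held one. With the Chd7 summit inside the Top2b peak, Top2b was found at 9.79% of members in WT and 23.7% in *Chd7*-deficient CGNs, a smaller target than the whole peak. Within 250 bp of the H3K27ac summit the shares of promoters without Chd7 were 10.2% and 25%, and the differences from promoters with Chd7 were 9.48 and 11.9 percentage points. Within quintiles of H3K27ac width, narrowest to widest, the differences were 2.84, 2.12, 3.12, 8.90 and 10.8 points in WT and 5.76, 10.7, 6.24, 12.5 and 12.7 in *Chd7*-deficient CGNs. Median G+C was 66.6% in 500 bp windows and 66.3% at the stricter q. In 500 bp windows motif shares were 79.0% for the GC box, 14.7% for the ETS core, 3.82% for NRF1, 19.2% for CAGATG, 28.5% for CAGCTG, 7.28% for the TATA box and 18.1% for the NFI letters, as longer windows hold more letters. The ETS difference between promoters, examined by width after seeing the data, was 1.44 points in the narrowest quintile, the opposite direction. Of 32 alternative counts for single gene lists, 16 stayed within 1.5 times.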
